A study of Mus musculus with 12 samples.

Results

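Total RNA from a pool of mouse cell lines was amplified from an input of 0.3 ng on 3 arrays and from 10 ng on 3 arrays, and the same RNA therefore stands on both sides of the comparison. These 6 arrays, of 12 in the series, were chosen by their sample titles. The remaining arrays hold the same pool at 3 ng (3 arrays), used below as a reference point between the inputs, and mouse kidney RNA at 10 ng (3 arrays). The kidney arrays are compared with nothing here. They do count toward the background level, the choice of a gene's probe set, the filter on low signals and 1 alternative fit. The pool is the Universal Mouse Reference RNA of a commercial supplier (spelt Strategene in the labels), and no genotype, treatment or age applies to it. All titles carry the code pRS, which the labels do not explain. Nor do they say whether the arrays of 1 input came from separate amplifications, so the p-values below measure the spread between these arrays, which may be technical.

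Universal reference RNA mixes total RNA from cultured lines of many origins, among them embryo, fibroblast, kidney, liver, macrophage, B and T lymphocyte, mammary gland, muscle, skin and testis. A transcript made by a single line is diluted by all the others, whereas transcripts of growth and housekeeping are contributed by every line. Subnanogram total RNA holds the messenger RNA of very few cells, and a rare transcript is then represented by few molecules before amplification starts. A gene is described below by the probe set that names it alone and was brightest over all 12 arrays. Signals are in the deposited array units, in which the trimmed mean of every array is 500. A probe set is called under background below a signal of 33.65, which is the 95th percentile over all arrays of 27 control probe sets for Bacillus genes, and detected when it lay at or above that level on all 3 arrays at 10 ng. A gene under background on a 0.3 ng array is called lost there; this says that its signal could not be told from the controls, not that the RNA was absent.

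The 0.3 ng arrays were dimmer at the low end and less alike. The share of probe sets under background was 42.4%, 40.9% and 40.4% on the 3 arrays at 0.3 ng, against 35.4%, 36.3% and 35.5% at 10 ng. Every 0.3 ng array lay above every 10 ng array, and the means, 41.2% ± 1.03 and 35.7% ± 0.528 (SD, n = 3 arrays each), differed by 5.48 percentage points (two-sided exact permutation p = 0.1, the smallest that 3 against 3 arrays can give). Pearson's r between replicate arrays, across probe sets, was 0.827 to 0.863 at 0.3 ng and 0.963 to 0.965 at 10 ng. The median SD of a probe set's log2 signal among replicates was 0.69 at 0.3 ng, 0.31 at 3 ng and 0.24 at 10 ng. Among the 24946 detected probe sets, 29.3% spanned a 4-fold range or more among the 0.3 ng arrays, against 5.18% at 3 ng and 0.605% at 10 ng.

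The spread depended on the signal. For genes of 5000 and over at 10 ng, the median SD was 0.14 on the log2 scale at 0.3 ng and 0.09 at 10 ng. For genes between 50 and 100 it was 0.92 and 0.34. The median log2 difference of 0.3 minus 10 ng was −0.56 for genes between 50 and 100 and −0.30 between 500 and 1000, and it was 0.16 for genes of 5000 and over. The same 3 medians for 3 minus 10 ng were −0.02, −0.11 and 0.00. Over all 12820 genes tested the median was −0.21, and centring every array on its median log2 signal moved it to 0.22, so a direction is read below only relative to that median or from the test.

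**Figure D1:**
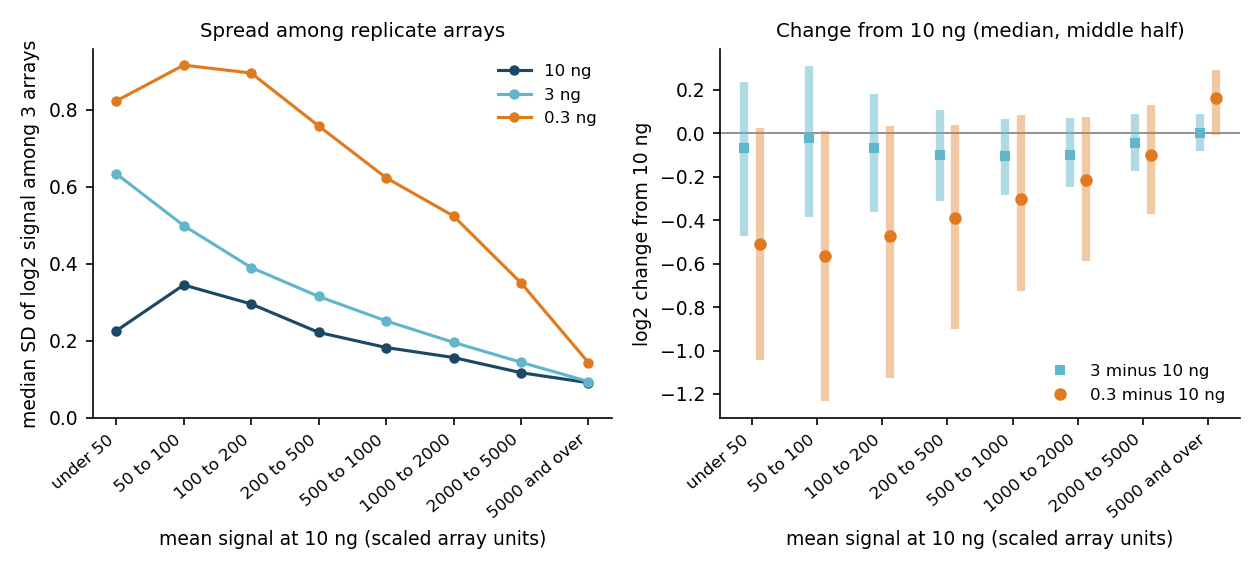
Left, the median SD of log2 signal among 3 replicate arrays, by the mean signal at 10 ng, for each input; right, the median (point) and interquartile range (bar) of the log2 change from 10 ng, for the genes detected at 10 ng. The 0.3 ng line lies above both others in every signal class, with the gap narrowing from 0.92 against 0.34 between 50 and 100 to 0.14 against 0.09 at 5000 and over.

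Loss of detection was common among dim genes and nearly absent among bright ones. Of 11727 genes detected at 10 ng, 9895 were above background on all 3 arrays at 0.3 ng, 1075 were lost on 1 array, 546 on 2 and 211 on all 3. Loss on any array thus concerned 15.6% of the genes and loss on all 3 concerned 1.8%. At 3 ng the corresponding counts were 438, 127 and 39. Of the 24946 probe sets, 735 (2.95%) were lost on all 3 arrays and 4966 (19.9%) on only some. The count lost on all 3 was 401 with arrays centred on their medians and 459 after quantile normalization, with the background taken anew each time, and between 1220 and 1433 when 1 of the 0.3 ng arrays was left out, so that only 2 arrays had to agree; the count lost on only some arrays was 2952 without array 1 at 0.3 ng.

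By signal at 10 ng, 83% of 212 genes under 50 were lost on at least 1 array, and 63.4% of 1316 genes between 50 and 100. The share was 32.4% of 1681 genes between 100 and 200, 9.03% of 2536 between 200 and 500, 2.21% of 1808 between 500 and 1000 and 0.473% of 1481 between 1000 and 2000. Of 1597 genes between 2000 and 5000 only 1 was lost, on a single array, and of 1096 genes at 5000 and over 0 were lost. The 3 ng arrays showed the same order at lower levels, 28.6% between 50 and 100, 4.88% between 100 and 200 and 0.513% between 200 and 500.

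**Figure D2:**
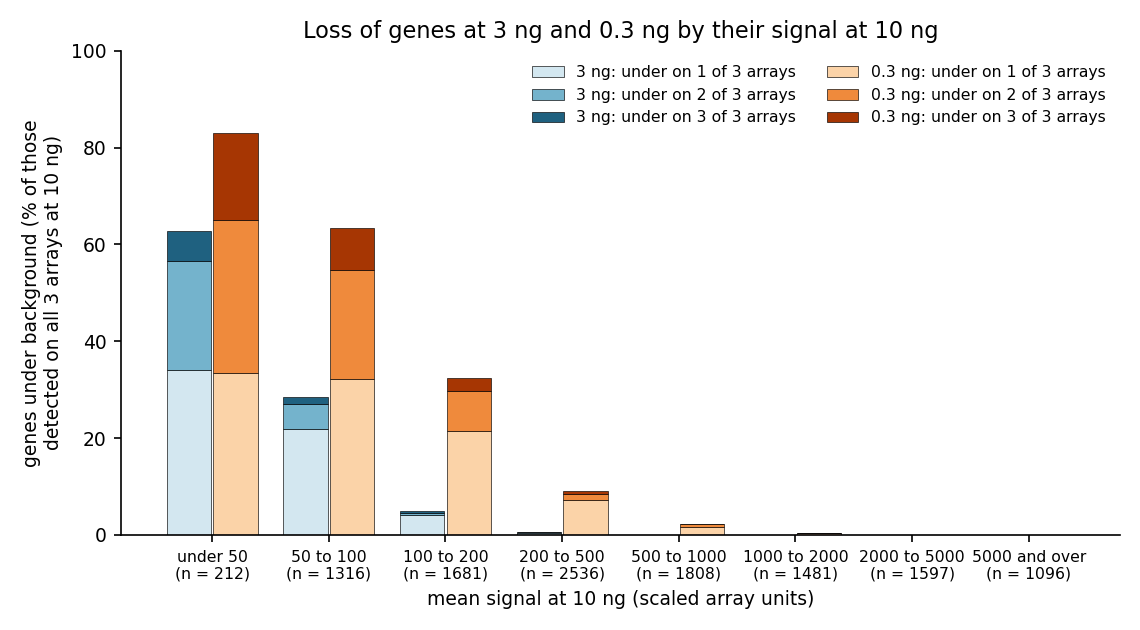
Bars give the percentage of genes detected on all 3 arrays at 10 ng that were under background on 1, 2 or 3 of the arrays at 3 ng (blue) or 0.3 ng (orange), by the mean signal at 10 ng; the number of genes stands under each class. At 0.3 ng the total falls from 83% under a signal of 50 to 2.21% between 500 and 1000, and in every class below 500 fewer genes were lost on all 3 arrays than on 1.

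Requiring detection on 3 arrays at 10 ng favours loss elsewhere, so the arrays were also compared 1 at a time. Of probe sets above background on 2 of the 10 ng arrays, 4.44% to 5.09% were under it on the third, and 4.49% to 5.75% were under it on a single 3 ng array. On a single 0.3 ng array the share was 12.6% to 15.8%. Array 1 at 0.3 ng lost 3423 of the detected probe sets, array 2 lost 2786 and array 3 lost 2654. The losses overlapped in part: 35.6% to 51.4% of the probe sets lost on 1 array were also lost on another, against 6.29% to 9.88% of those it kept.

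The brightest gene lost on all 3 arrays was Epha4, an ephrin receptor tyrosine kinase. Its signals were 498, 678 and 722 at 10 ng and 822, 833 and 738 at 3 ng, but 29.4, 27.7 and 9.7 at 0.3 ng. The 3 low-input arrays sit far below the other 6, and Epha4 was at least 18.8-fold lower, with a log2 change of −4.69 (SE 0.42, limma adjusted p = 0.018). A bound of this kind is the mean at 10 ng over the background level, since no level under background is measured.

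Among membrane receptors and transporters, Adgrl3, an adhesion G protein-coupled receptor of the latrophilin family, measured 304, 377 and 592 at 10 ng and 3.3, 2.2 and 1.1 at 0.3 ng (at least 12.6-fold lower). At 3 ng it measured 277, 481 and 475, at or close to the range at 10 ng. Slc6a2, the noradrenaline transporter, measured 400, 572 and 495 at 10 ng against 21.7, 19.4 and 24.6 at 0.3 ng (at least 14.5-fold lower). Neither gene's groups overlapped. Aplnr, the apelin receptor, measured 610, 394 and 275 at 10 ng and 6.7, 6 and 5.4 at 0.3 ng (at least 12.7-fold lower). It differs from the others in that it was already low at 3 ng, at 16.2, 115 and 34.4, where 1 of the 3 arrays lay under background.

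The remaining genes of the 10 brightest lost on all 3 arrays were Pde5a, the cyclic GMP phosphodiesterase, Apold1, Ccdc173, Lrp2bp, Mmp23, a matrix metalloproteinase, and Pif1, a DNA helicase. Pde5a measured 397, 445 and 337 at 10 ng against 1.2, 27.2 and 14 at 0.3 ng, with an adjusted p of 0.051 that misses the threshold. Lrp2bp measured 294, 375 and 291 against 6.8, 4.3 and 5.1, and its 3 ng arrays, at 493, 362 and 213, straddled the 10 ng level. Pif1 measured 188, 389 and 281 against 3.9, 21 and 19.7. The bounds for these 6 genes ran from 8.5-fold for Pif1 to 11.7-fold for Pde5a. Of the 10, Epha4 alone had a 10 ng mean above 500.

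Other probe sets of such genes could be compared where they were detected at 10 ng. Sntb1, which encodes a syntrophin, had 4 probe sets detected at 10 ng, with mean signals of up to 217, and all 4 were lost on all 3 arrays. The brightest, 251, 142 and 258 at 10 ng, measured 13.9, 0.8 and 1.3 at 0.3 ng. The second probe sets of Adgrl3, Pde5a and Pif1 were likewise lost on all 3 arrays, as was 1 of 2 for Ccdc173, while that of Mmp23 was lost on 1. A dim second probe set of Aplnr did not fall with the first. It read 53.6, 28.3 and 65.8 at 0.3 ng and 50.8, 73.6 and 53.1 at 3 ng, from 41, 53 and 39.5 at 10 ng. For Slc6a2, 1 of 2 others was kept on all 3, at 57.9, 43.5 and 92.4 against 45.6, 41.9 and 34.5 at 10 ng. Over the array, 5337 genes had 2 or more probe sets detected at 10 ng. In 303 of them at least 1 probe set was lost on all 3 arrays, and in 233 of these 303 another was kept on all 3; 7 genes lost every one on all 3.

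Genes lost on 2 arrays could be bright on the third. Dppa2, a chromatin protein of the early embryo and germ line, measured 1132, 1311 and 1218 at 10 ng, and 31.2, 25.1 and 2343 at 0.3 ng. A pair of arrays lay under background and the third above every 10 ng array, and the log2 change of −3.19 had an SE of 1.72 (adjusted p = 0.44). Satb1, a chromatin organiser of thymocytes, measured 725, 674 and 734 at 10 ng and 11.5, 4.2 and 58.8 at 0.3 ng (log2 change −5.17, adjusted p = 0.055). Here the third array was low as well, and the 2 groups did not overlap.

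Gpm6a, a neuronal membrane glycoprotein, was the only one of the 6 brightest genes lost on 2 arrays to pass the test. It measured 1107, 814 and 1008 at 10 ng and 24.3, 67.5 and 15.7 at 0.3 ng (log2 change −4.84, SE 0.51, adjusted p = 0.03). Its second probe set went from 697, 436 and 454 to 2, 60.7 and 8.1, lost on the same arrays, 1 and 3. The other members of the 6 were Crispld2, Gcnt2 and Auts2, whose highest 0.3 ng array read 139, 109 and 246, below every 10 ng array of the same gene; their adjusted p lay between 0.10 and 0.15. A dim second probe set of Gcnt2 was kept on all 3 arrays, and one of Crispld2 was lost on the same arrays, 1 and 3.

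Among genes lost on a single array, Trim21, a cytosolic antibody receptor and ubiquitin ligase, was the brightest. It measured 2287, 2063 and 2112 at 10 ng and 2195, 1726 and 2153 at 3 ng, but 19, 845 and 857 at 0.3 ng. It was the 1 gene above a 10 ng signal of 2000 to be lost. A dimmer Trim21 probe set, at 64.6, 73.8 and 66.4 at 10 ng, read 36.3, 73.3 and 5.8, lost on array 3 instead. Tmem101 measured 1041, 1249 and 1091 at 10 ng and 29.6, 1476 and 850 at 0.3 ng, so arrays 2 and 3 spanned the 10 ng range. Cntn3, a contactin of neural cell surfaces, measured 1297, 769 and 1415 at 10 ng and 2.5, 787 and 982 at 0.3 ng. Its second probe set was kept on every array, at 84.9, 195 and 109 against 443, 530 and 471.

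Kdm5d, a histone demethylase of the Y chromosome, was low on all 3 arrays although only 1 lay under background. It measured 1463, 823 and 964 at 10 ng and 108, 52.2 and 23.2 at 0.3 ng (log2 change −4.25, SE 0.57, adjusted p = 0.045). Its second probe set, at 352, 282 and 153 at 10 ng, was lost on all 3 arrays. Sipa1l1 measured 1655, 737 and 1724 against 22, 136 and 135, while a second probe set, at 368, 474 and 352 at 10 ng, read 381, 278 and 522. Rab26os, a noncoding transcript, measured 1685, 1335 and 1709 against 31.3, 926 and 115. All 6 were lost on array 1 except Kdm5d, which was lost on array 3 and was the only one of them to pass the test.

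**Figure D3:**
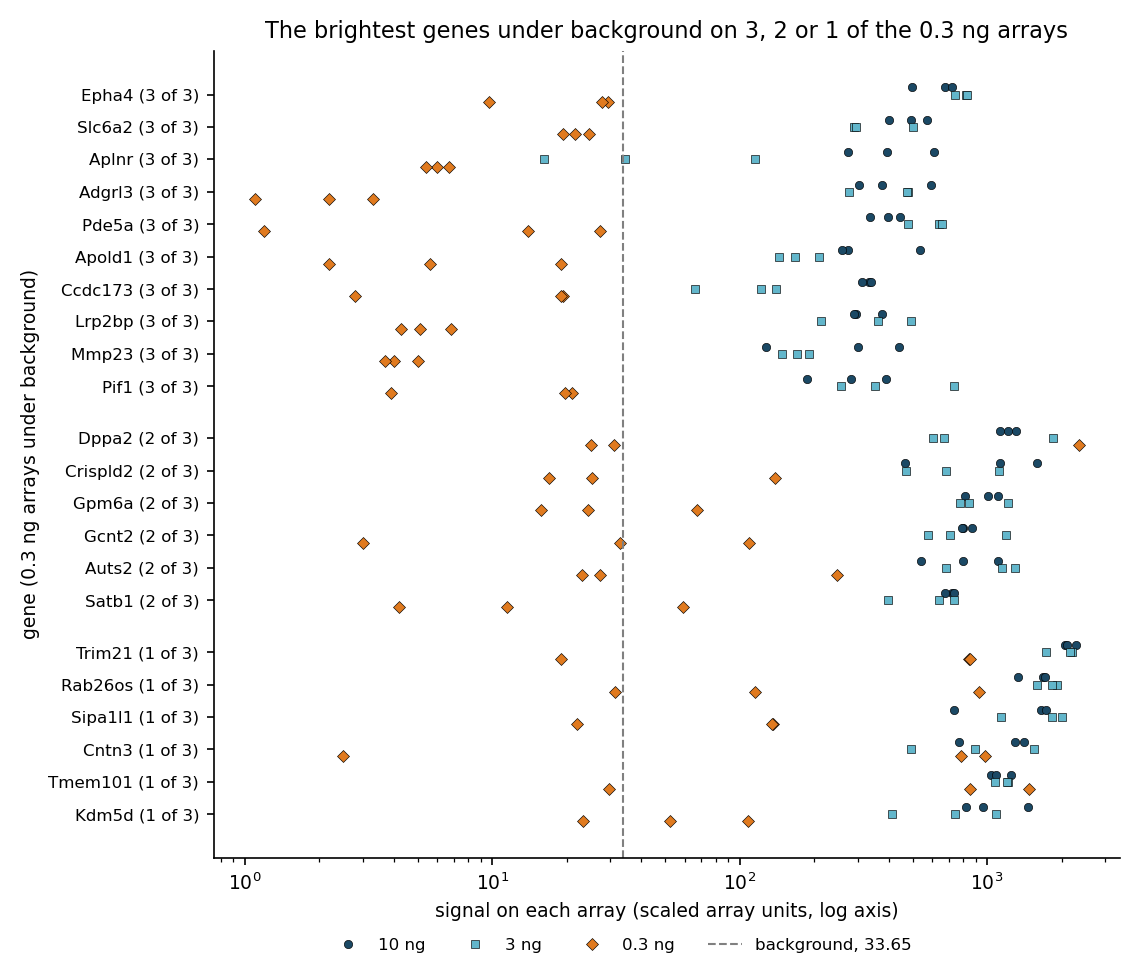
Signal on each array (log axis, array units) of the 10 brightest genes lost on all 3, and the 6 brightest lost on 2 or on 1, of the 0.3 ng arrays; the dashed line is the background of 33.65. In the upper block the 0.3 ng points (orange diamonds) lie together under background, whereas in the lower blocks they spread across it, as for Dppa2, at 25.1 to 2343. Signals under 1 would be drawn at 1, and none of these genes has one.

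Where a gene was lost on some arrays, its level on the arrays that kept it was lower after loss on 2 arrays than on 1. The difference was largest among the few genes of 500 and over. Of the genes of 500 and over at 10 ng, 36 were lost on 1 array; their signal on the keeping arrays had a median of 51.9% of the 10 ng mean, and 2.15% on the losing array. For the 11 lost on 2 arrays these medians were 13.3% and 1.84%. In 15 of the 36, an array at 0.3 ng reached or exceeded the 10 ng mean. Among genes of 500 and over lost on no array, 4456 of 5934 had such an array. Genes lost on no array had more keeping arrays that could reach that mean. Between 200 and 500, the medians on the keeping arrays were 59% for 185 genes lost on 1 array and 47.8% for 30 lost on 2. For the 360 genes between 100 and 200 lost on 1 array, the keeping arrays had a median of 77.1% of the 10 ng mean. For the 140 of that class lost on 2, it was 63.6%. Of the 360, 204 had an array at or above the 10 ng mean, beside 852 of 1137 lost on no array.

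In the signals as deposited, departures upward were rarer than downward ones, and both were mostly confined to 1 array. The counts below were not repeated under another scaling, and centring the arrays moved the all-gene median change across 0. Of the 11727 genes detected at 10 ng, 1830 (15.6%) had an array at 0.3 ng that lay 4-fold or more below the lowest 10 ng array. Of these, 1375 had it on exactly 1 array, 366 on 2 and 89 on all 3. An array at 4 or more times the highest 10 ng array was seen for 215 genes (1.83%), of which 203 had it on exactly 1 array, and 2 genes on all 3. At 3 ng these counts were 215 downward and 23 upward. The upward departures were spread evenly, 77, 74 and 78 genes on arrays 1, 2 and 3, while the downward ones numbered 970, 681 and 723. For 42 genes, arrays departed both ways.

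The reverse pattern, under background on all 3 arrays at 10 ng and above it on all 3 at 0.3 ng, was seen for 38 of 3805 genes and 120 of 11771 probe sets, against 70 genes and 204 probe sets at 3 ng. With arrays centred on their medians it was 369 probe sets, and 28 with arrays scaled on the hybridisation controls, so this count follows the scaling. The brightest at 0.3 ng, 2610316D01Rik, measured 23.3, 9.4 and 30.2 at 10 ng and 89.2, 356 and 100.5 at 0.3 ng (at least 5.41-fold higher, adjusted p = 0.14). The next were 4933406J10Rik, Gpr152, Col13a1, a transmembrane collagen, Csmd2 and Megf6, with bounds of 3.3-fold down to 2.09-fold. Their adjusted p lay between 0.099, for Gpr152, and 0.28, above the threshold, and Megf6 did not pass the filter on group means of log2 values.

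By limma, 215 of 27022 probe sets differed between 0.3 and 10 ng at an adjusted p under 0.05 (0.796%), 206 lower (0.762%) and 9 higher (0.0333%) at 0.3 ng. At 3 against 10 ng the same fit called 0, with 2736 probe sets at an unadjusted p under 0.05, against 4175 at 0.3 ng. By gene, 70 of 12820 fell (0.546%) and 1 rose (0.0078%). Probe sets whose groups did not overlap were many more, 4952 lower (18.3%) and 1999 higher (7.4%), as were such genes, 2279 lower (17.8%) and 957 higher (7.46%). Of the 70 genes that fell, 45 were detected at 10 ng and lost on all 3 arrays at 0.3 ng, and 16 stayed above background on all 3. Seen the other way, 45 of the 157 tested genes lost on all 3 passed the test, as did 2 of 446 lost on 2, 4 of 979 lost on 1 and 16 of 9843 kept. The calls were not stable: without any 1 of the 10 ng arrays, 0 probe sets passed (2479 to 2666 at an unadjusted p under 0.05), and without array 1, 2 or 3 at 0.3 ng, 595, 294 and 569 did. The fit takes 1 variance for both groups, which the SDs above do not meet, and with array weights per input group 69 probe sets passed.

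Among the genes that passed, the 10 with the largest fall were Adgrl3, Aplnr, Tusc1, Lrp2bp, Mmp23, Apold1, Gpm6a, Sntb1, Epha4 and Ccdc173, with log2 changes from −6.09 to −4.45 and adjusted p from 0.013 to 0.038. Tusc1, a candidate tumour suppressor not yet described, measured 256, 169 and 266 at 10 ng, 197, 118 and 298 at 3 ng, and 1.1, 2.2 and 4.6 at 0.3 ng. All but Gpm6a were lost on all 3 arrays. These changes depend on the pseudocount for arrays near 0, and the bounds, 6.44-fold for Sntb1 to 18.8-fold for Epha4, are the safer sizes.

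Some genes fell while staying above background. Slc47a1, a multidrug and toxin extrusion transporter, measured 1009, 1293 and 1670 at 10 ng and 592, 1444 and 1297 at 3 ng, but 126, 82.1 and 94.8 at 0.3 ng (log2 change −3.66, SE 0.30, adjusted p = 0.017). Zfp318, a zinc finger protein, measured 989, 861 and 746 against 72.3, 117 and 174 (log2 change −2.87, adjusted p = 0.042). Its 3 other detected probe sets, all under 100 at 10 ng, did not move with it; the brightest, at 86.4, 76.1 and 87, read 22.7, 174 and 215. Pofut2, a protein O-fucosyltransferase, was the brightest gene that fell, chosen after its values were seen, at 3450, 3072 and 2543 at 10 ng and 679, 758 and 891 at 0.3 ng (log2 change −1.95, SE 0.25, adjusted p = 0.041). The 3 ng arrays of Pofut2, at 1360, 1503 and 3282, lay between the groups or within the higher one.

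The single gene that rose was Ddx11, a DNA helicase of sister chromatid cohesion. It measured 276, 320 and 282 at 10 ng, 181, 185 and 327 at 3 ng, and 1643, 2108 and 2198 at 0.3 ng (log2 change 2.74, SE 0.24, adjusted p = 0.017). All 3 low-input arrays lay more than 4-fold above every other. A second Ddx11 probe set did not move with it, at 365, 517 and 401 at 10 ng and 1193, 521 and 100.7 at 0.3 ng.

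Brighter cell type markers of the pool were kept more often, but between signals of 100 and 2000 more markers were lost than the all-gene shares give. The marker lists name genes chosen for the kinds of tissue that the pooled lines came from, and were not shown to define these lines. The 10 lists together had 307 genes on the array, of which 175 were detected at 10 ng. Of these 175, 45 (25.7%) were lost on at least 1 array at 0.3 ng, beside 15.6% of all genes, and 5 on all 3. The median 10 ng signal of the detected markers was 479 against 523 for all genes, and the shares of all genes in the markers' signal classes sum to 33.7 losses (19.3%). With arrays centred on their medians, 32 of 166 markers (19.3%) were lost. That scaling changes the losses of all genes too, so this share cannot be set against the 15.6% or the 33.7 losses. By signal, the markers lost were 17 of 26 between 50 and 100, 15 of 28 between 100 and 200, 4 of 28 between 200 and 500, 3 of 25 between 500 and 1000 and 1 of 17 between 1000 and 2000. These are 65.4%, 53.6%, 14.3%, 12% and 5.88%, beside 63.4%, 32.4%, 9.03%, 2.21% and 0.473% of all genes in the same classes. The differences were not tested, and some rest on very few markers. The 26 markers between 2000 and 5000 and the 19 above were all kept on the 3 arrays. None of the 216 marker genes tested passed the limma test (0 called), while 0.554% of all genes did. Of the 216, 30 had an unadjusted p under 0.05, beside 1714 of all 12820 genes tested.

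**Figure D4:**
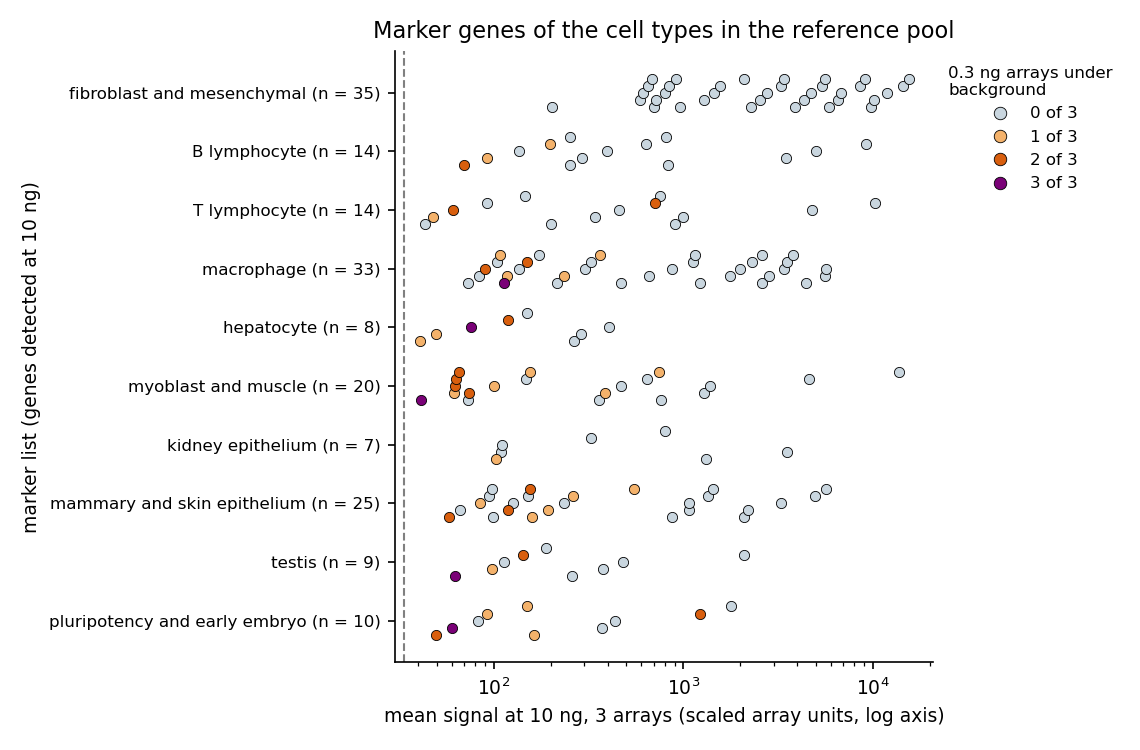
Each point is a marker gene detected at 10 ng, placed by its mean signal there (log axis) and coloured by the number of 0.3 ng arrays on which it was under background (dashed line, 33.65). The fibroblast list lies mostly above 500 and holds 0 lost genes of 35, while the lost genes of the other lists lie under 500 apart from Satb1, Megf10, Trp63 and Dppa2.

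Of 36 fibroblast and mesenchymal markers 35 were detected at 10 ng, and all 35 were kept on every 0.3 ng array. The all-gene shares of their signal classes sum to 0.33 losses. The intermediate filament vimentin (Vim) measured 14669, 17627 and 14127 at 10 ng and 20992, 17127 and 17545 at 0.3 ng. The calcium-binding S100a4 and the matrix protein Sparc had log2 changes of 0.28 and 0.22. Even the dimmest detected member, the matrix protein Postn, at 165, 205 and 238 at 10 ng, read 363, 247 and 128. The list's median log2 change was −0.09, beside −0.21 for all genes; after quantile normalization both were −0.10. One member departed on a single array: biglycan (Bgn), a matrix proteoglycan, chosen after its values were seen, read 18336 on array 1 against 6907 and 6938 on the others and 5703 to 6032 at 10 ng. Its other probe sets read 4440 and 8843 on that array, from 10 ng means of 5866 and 6210.

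The lymphocyte lists kept their brightest members and lost a few others. Of 26 B lymphocyte genes, 14 were detected at 10 ng and 3 lost at 0.3 ng, beside 2.34 from the all-gene shares of their signal classes. Irf4, a transcription factor of activated B cells, measured 9049, 9807 and 8719 at 10 ng and 12856, 11717 and 9978 at 0.3 ng, and the coactivator Pou2af1 5493, 4412 and 5212 against 6053, 6598 and 5290. Ebf1, the factor of B lineage commitment, varied more, at 4698, 2375 and 3402 against 840, 4391 and 4439. Its 3 other detected probe sets, all dimmer, were kept and differed on array 1. The brightest of them was lowest there too, at 385, 628 and 658 from 516, 395 and 427. The others were highest there, at 480, 66.2 and 119 from 226, 167 and 218, and at 174, 50.7 and 130 from 68.7, 102.5 and 99.1. The tyrosine kinase Btk was lost on array 3 (53.4, 153 and 7.8, from 111, 298 and 189). Vpreb3, of the surrogate light chain family, was lost on array 2, and Cd79a, a subunit of the B cell receptor, on arrays 2 and 3 (49.4, 2.7 and 18.2, from 58.1, 99.2 and 52.8).

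Of 25 T lymphocyte genes, 14 were detected and 3 lost, beside 3.61 from the all-gene shares of their signal classes. Cd3e, a subunit of the T cell receptor complex, measured 9956, 10913 and 10110 at 10 ng and 12685, 12634 and 11635 at 0.3 ng. Bcl11b, a factor of T lineage commitment, and Cd3g were likewise kept. Beside Satb1, the losses were the adhesion molecule Cd2, from 72.8, 73.9 and 36.2 to 15.3, 3 and 39.8, and the coreceptor gene Cd8a, from 39.2, 63.6 and 39.9 to 44.4, 34.4 and 31.1. Departures upward were seen on single arrays, in genes chosen after their values were seen. The costimulatory receptor Cd28 read 1752 on array 1 against 260 and 217, and 292 to 371 at 10 ng; its second probe set read 942 on the same array against 178 and 209. The kinase Zap70 read 1733 on array 2 against 184 and 260, while its other probe sets read 59.4 and 72.1 there.

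Of 42 macrophage genes, 33 were detected and 7 lost, beside 4.78 from the all-gene shares of their signal classes. The chemokine Ccl3 measured 5471, 5802 and 5746 at 10 ng and 7055, 6320 and 6514 at 0.3 ng. Laptm5, a lysosomal protein of blood cells, measured 7368, 5626 and 3745 against 3465, 3358 and 4140, and the protease cathepsin S (Ctss) 4153, 4591 and 4547 against 3661, 3634 and 3511. The scavenger receptor Msr1 was lost on array 3 (312, 125 and 28.3, from 349, 360 and 378), while its second probe set, at 113, 105 and 96 at 10 ng, was lost on all 3. Also lost on array 3 was the beta-glucan receptor Clec7a (134, 114 and 1.4, from 242, 204 and 259). The Fc receptor Fcgr3 was lost on arrays 1 and 3 (5.3, 44.2 and 5.9, from 91.3, 184 and 176), and the mannose receptor Mrc1 on all 3 (2.9, 23.7 and 30, from 48.6, 164 and 129). Aif1, Mmp12 and Ccl6 were lost on 1 or 2. Csf1r, the receptor that macrophages need for survival, stood out upward on array 1 (chosen after its values were seen). It read 5942, 1094 and 1054 against 987 to 1373 at 10 ng. Another Csf1r probe set was also highest on array 1, at 829, 303 and 223 from 436, 354 and 560. The remaining one did not rise there, at 145.5, 240.5 and 76.2 from 176.7, 165 and 167.5.

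Of 34 muscle genes 20 were detected, and 10 of them were lost on at least 1 array, beside 6.27 from the all-gene shares of their signal classes. Bright members were kept, among them the adhesion molecule Ncam1, at 13568, 14046 and 13466 at 10 ng and 17717, 16909 and 17351 at 0.3 ng, which neural cells share, and the transcription factors Mef2c and Myf5. Megf10, a receptor of satellite cells, measured 795, 642 and 797 at 10 ng and 25.9, 1143 and 1017 at 0.3 ng, lost on array 1 and above the 10 ng range on the others. The troponin gene Tnnc1 read 19, 267 and 274 from 320, 481 and 354, lost on the same array, and the myosin light chain gene Myl1 85.6, 26.9 and 68.5 from 210, 132 and 127. Tnni1 was the member lost on all 3. The remaining losses, Myog, Rapsn, Tnnc2, Myf6, Chrna1 and Actc1, had 10 ng means under 100. The list's median log2 change over the 21 members tested was −0.60, which is −0.39 relative to all genes and only −0.07 relative to them after quantile normalization.

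Of 47 epithelial markers of mammary gland and skin 25 were detected and 8 lost, all with 10 ng means under 1000. The all-gene shares of their signal classes sum to 5.99 losses. Keratin 18 (Krt18), of simple epithelia, measured 5584, 6398 and 5045 at 10 ng and 6488, 6709 and 5723 at 0.3 ng, and the growth factor Ereg and keratin 8 (Krt8) were kept too. Trp63, the master factor of stratified epithelium, was the brightest lost, at 553, 66.9 and 24.3 from 580, 516 and 553. The tight junction gene Cldn7 read 23.1, 152 and 304 from 203, 299 and 286, and the milk protein gene Csn3 15.3, 68.5 and 45.7 from 243, 184 and 157. Grhl2, an epithelial transcription factor chosen after its values were seen, counted as kept yet measured 2435, 2008 and 1835 at 10 ng and 48.5, 52.8 and 1357 at 0.3 ng. The adherens junction gene Cdh1 was lost on arrays 1 and 2, at 19.3, 32.4 and 52.6 from 110, 156 and 200. The desmosomal Dsg2 and the splicing regulator Esrp1 were also lost on 2 arrays, and keratin 7 (Krt7) and the laminin gene Lamb3 on 1.

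The pluripotency list lost 6 of 10 detected genes (60%), beside 3.57 (35.7%) from the all-gene shares of their signal classes. Klf4, which epithelial cells also make, Igf2bp3 and Igf2bp1 were kept. Beside Dppa2, Dppa4 read 29.8, 246 and 56.4 from 135, 181 and 175, and the tumour antigen gene Trap1a 32, 390 and 148 from 152, 151 and 145. Dppa4 and Trap1a were lost on array 1, where both stood just under background. Nanog, Dppa5a and Utf1 had 10 ng means under 100. With arrays centred on their medians or quantile normalized, the list lost 2 of 8, and its defining factors Pou5f1 and Sox2 were not detected at 10 ng.

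The remaining lists were small. The all-gene shares of their signal classes sum to 3.21 losses for the hepatocyte genes, of which 4 were lost. For the kidney and testis genes they sum to 1.09 and 2.51. Of 29 hepatocyte genes only 8 were detected at 10 ng, and albumin (Alb) was not, at 73.2, 21.1 and 37.8. Afp, the fetal serum protein, was kept at 767, 782 and 461 from 398, 438 and 387; the retinol carrier Rbp4 was lost on arrays 1 and 2 but read 406 on the third, from 177.2, 83.1 and 94.8, and the liver factor Foxa3 was lost on all 3. F10 and Apoc3 were lost on 1. Of 15 kidney genes 7 were detected and only the cadherin Cdh6 lost, on array 3 at 31.8; the nephron progenitor factor Sall1 measured 4122, 2824 and 3631 against 2829, 4827 and 3250. Emx2, a factor of urogenital development, read 2556, 532 and 2678 from 725, 711 and 977. Of 31 testis genes 9 were detected and 3 lost; Zbtb16, of germline stem cells, read 1, 2.5 and 525 from 157, 75.9 and 195, Tex14 was lost on array 3, and the inhibin subunit gene Inha on all 3.

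Lists for cell types that the pool does not name were mostly undetected at 10 ng: 0 of 8 pancreas genes, 1 of 9 erythroid, 2 of 7 adipocyte, 2 of 11 melanocyte, 4 of 14 endothelial and 7 of 16 neuron genes. Of these, 4 neuron, 2 endothelial and 1 melanocyte gene were lost on at least 1 array. The all-gene shares of their signal classes sum to 2.43, 1.30 and 0.32 losses. Fabp4, a fatty acid carrier of adipocytes and macrophages, measured 418, 317 and 438 at 10 ng and 6237, 726 and 136 at 0.3 ng. Its second probe set read 116, 72.8 and 74, with no rise on array 1. The neuronal Map2 was lost on all 3 arrays, at 0.7, 11.4 and 7.3 from 90.2, 73.2 and 78.5, with an adjusted p of 0.061.

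Gene classes of general cell function were kept almost entirely. All 41 detected cytosolic ribosomal protein genes, 73 mitochondrial ribosomal protein genes, 37 proteasome subunits, 59 splicing factors, 60 mitosis genes, 15 glycolytic enzymes, 17 cholesterol synthesis enzymes and 8 chaperonin subunits were above background on every 0.3 ng array. Few losses went with their signals. In the same order, the all-gene shares of their signal classes sum to 0.16, 1.82, 0.44, 0.63, 2.80, 0.08, 0.81 and 0.003 losses. Rpl37a measured 18584, 21792 and 18325 at 10 ng and 26876, 23692 and 24105 at 0.3 ng, and the hexose transporter Slc2a1 12427, 13937 and 12794 against 17428, 15869 and 16239. The ribosomal protein list had a median log2 change of 0.28, 0.49 above the median of all genes, and the oxidative phosphorylation list 0.08, 0.29 above it; under scaling on the hybridisation controls both medians were below 0, at −0.07 and −0.28, and after quantile normalization they stood only 0.12 and 0.06 above all genes. None of these genes passed the limma test (0 called), beside 0.554% of all genes, so 0 called in classes of this size says little. Those at an unadjusted p under 0.05 numbered 1 of 43 ribosomal protein, 5 of 77 oxidative phosphorylation and 6 of 73 mitochondrial ribosomal protein genes tested. They numbered 5 or fewer in each of the other classes named above as kept in full. Of all 12820 genes tested, 1714 had an unadjusted p under 0.05.

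The few losses in these classes were dim members. The all-gene shares of their signal classes sum to 0.98 losses for the oxidative phosphorylation genes and 4.33 for the synthetases. For the replication genes and the translation factors they sum to 2.26 and 2.45. Of 75 oxidative phosphorylation genes 2 were lost, Cox7c (185, 257 and 238 to 105, 34.6 and 3.3), a cytochrome oxidase subunit, and Cox7b2, a testis form (107, 147 and 204 to 30, 41.5 and 130). A second Cox7c probe set, at 51.5, 53.5 and 38.3 at 10 ng, was lost on all 3 arrays, at 3.1, 4.3 and 16.1. Of 34 aminoacyl-tRNA synthetases 3 were lost, and they were the mitochondrial Mars2 (451, 393 and 485 to 228, 20 and 847), whose dimmer second probe set was kept, Hars2 and Wars2. Of 48 replication genes 2 were lost, the fork protein Gins3 (280, 297 and 276 to 527, 12.6 and 43.3) and thymidylate synthase (Tyms). Of 56 translation factors 1 was lost, Eef2kmt.

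Classes of regulators and membrane proteins had dimmer members and more losses. Ion channels lost 20 of 37 detected genes (54.1%), beside 14.3 (38.6%) from the all-gene shares of their signal classes. Kcna4, a voltage-gated potassium channel, measured 910, 223 and 553 at 10 ng and 53.9, 22 and 32.6 at 0.3 ng. The cardiac calcium channel gene Cacna1c read 4.6, 112 and 104 from 389, 334 and 365. Its second detected probe set was kept and highest on array 1, at 338, 50.7 and 173 from 201, 185 and 192. The chloride transporter genes Clcn3 and Clcn5 were kept, Clcn3 at 7380, 3681 and 5921 from 6615, 5093 and 5580. Of 53 channels tested, 0 passed, beside 0.554% of all genes, and 15 had an unadjusted p under 0.05, as did 1714 of all 12820 genes.

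Zinc finger genes named Zfp lost 68 of 250 (27.2%, beside a sum of 56.8), and 3 of 260 tested fell by the limma test, beside 0.546% of all genes. Zfp599 measured 158, 161 and 159 at 10 ng and 1.1, 14.9 and 2 at 0.3 ng (log2 change −4.31, adjusted p = 0.039). Zfp84 read 26.9, 1093 and 1278 from 529, 576 and 601, lost on array 1 and above the 10 ng range on the others; its other detected probe sets, under 100 at 10 ng, were lost on all 3 arrays or on 1. Hox genes lost 8 of 23 (34.8%, beside a sum of 5.75): Hoxa10 was kept at 3047, 3276 and 2287 from 3147, 2896 and 3038, and Hoxa9 read 4.1, 246 and 49.7 from 277, 220 and 409. A dimmer Hoxa9 probe set was lost on arrays 1 and 2, at 2.2, 3.4 and 74.7 from 43.6, 43.8 and 41.8.

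Solute carriers lost 39 of 201 (19.4%, beside a sum of 41.8), and 4 of 264 tested fell, beside 0.546% of all genes, among them Slc6a2 and Slc47a1. Cytokines and chemokines lost 11 of 42 (26.2%, beside a sum of 10.1). Tnfsf11, the osteoclast differentiation ligand, fell, from 83, 109 and 136 to 1.7, 1.2 and 1.2 (at least 3.25-fold lower, adjusted p = 0.013), and had read 3.9, 6.9 and 1.9 at 3 ng already. The stromal chemokine Cxcl12 was kept at 5997, 6235 and 8164 from 7352, 7432 and 7541. Collagen chains lost 5 of 22 beside a sum of 3.47, and keratins 5 of 15 beside a larger sum of 5.68. The fibrillar Col1a1, Col1a2 and Col3a1 were kept, while Col8a2, a short-chain collagen, read 24.8, 23.7 and 48.1 from 151, 160 and 185. Orphan receptors named Gpr lost 8 of 24 beside a sum of 7.24, and histones 1 of 15 beside a larger sum of 2.48. The single detected olfactory receptor gene, Olfr156, was lost on all 3 arrays.

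**Figure D5:**
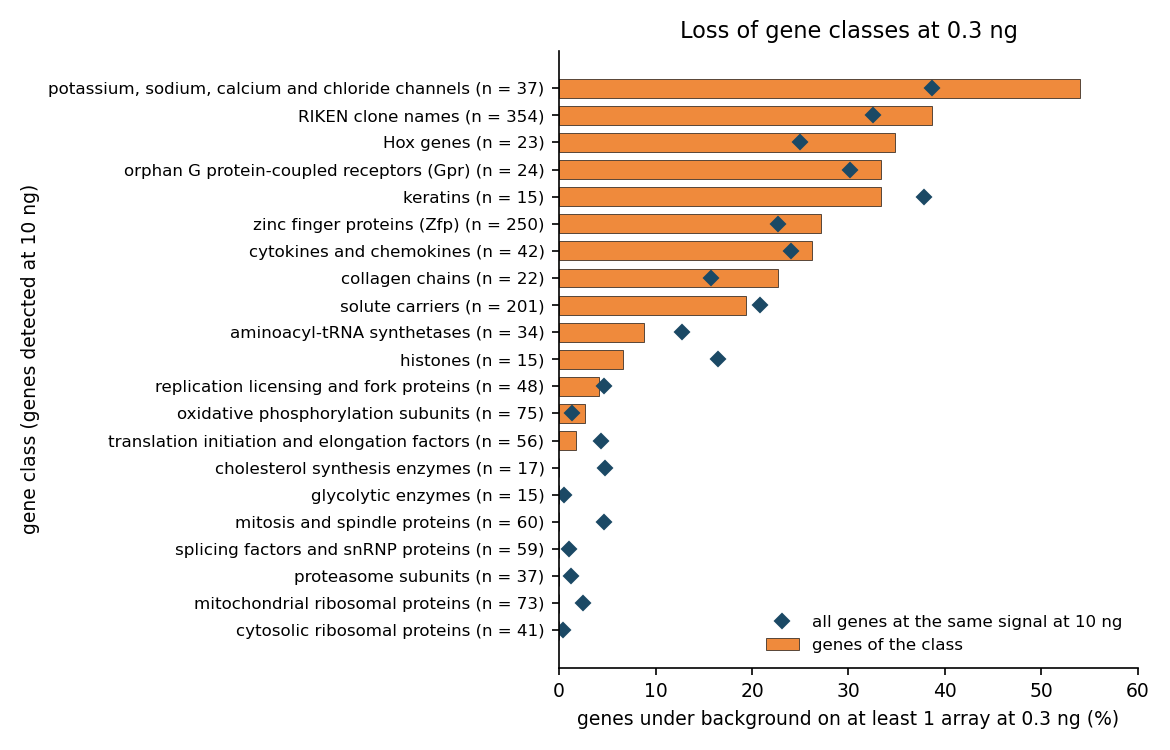
Bars give the percentage of a class's genes, detected at 10 ng, that were lost on at least 1 array at 0.3 ng, and diamonds the percentage from the all-gene shares of the same signal classes; classes with fewer than 15 detected genes are left out. The bars run from 0 for 7 classes of general cell function to 54.1% for ion channels, and most diamonds follow them.

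Larger shares of the probe sets without a gene name and of noncoding transcripts were lost, also within a signal class. Of 3464 detected probe sets with no gene symbol 39.4% were lost on at least 1 array, against 20.4% of 20866 with 1 symbol. Between 100 and 200 at 10 ng the shares were 47.7% and 33%, and between 200 and 500 they were 20.5% and 9.93%. Of 358 genes annotated as long noncoding RNA 46.4% were lost, against 14.6% of 11270 coding genes, and between 100 and 200 the shares were 44.6% of 83 and 31.7% of 1573. Genes carrying RIKEN clone names lost 137 of 354 (38.7%, beside a sum of 115 from the all-gene shares of their signal classes). These shares describe the 6 arrays and were not tested.

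Control probe sets were read beside these losses. The hybridisation controls, bacterial and phage transcripts that are normally added after labelling, had a mean log2 signal of 13.24, 13.12 and 13.14 at 0.3 ng and 12.74, 12.89 and 12.76 at 10 ng, a difference of 0.37 (exact permutation p = 0.1). Scaled on them, 634 probe sets passed the limma test, 10 higher and 624 lower, and 1175 were lost on all 3 arrays. The middle probe set of 18S ribosomal RNA read 11771, 12200 and 12379 at 0.3 ng against 3325, 4344 and 4126 at 10 ng, and 10471, 7695 and 10322 at 3 ng. The log2 ratio of 3′ to 5′ probe sets was 1.95 ± 0.03 at 0.3 ng and 1.91 ± 0.06 at 10 ng for beta-actin (Actb), and 0.21 ± 0.04 against 0.17 ± 0.03 for Gapdh (SD, n = 3; exact permutation p = 0.4 and 0.2). For the pyruvate carboxylase gene Pcx it was −0.45 ± 0.60 against 0.36 ± 1.20 (exact permutation p = 0.4). For the transferrin receptor gene Tfrc it was 2.17 ± 2.22 against 6.40 ± 1.59 (exact permutation p = 0.1), but its 5′ probe set was under background on all 3 arrays at 10 ng, at 3, 18.6 and 4.5, so that ratio is no measured level there. All 4 ratios had an adjusted p of 0.4. The part of these controls in the losses was not tested.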

How the data were processed

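Values were taken from the deposited table of 1 linear intensity per probe set and array; the scaling to a 2% trimmed mean of 500 was found from the values, and the sources used here do not give the summarisation and amplification steps. Signals were used as deposited. Of 45101 probe sets, 64 controls were left out of the tests, 34945 carried 1 gene symbol in the platform table, 932 several and 9160 none; 34754 symbols were looked up by gene ID in the RefSeq gene table (GRCm38.p6) and 0 changed. The files hold no counts, and the number of arrays limits the precision.

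Log2 values were taken after adding 3.9, the 10th percentile of positive values. Of the 4 group means of a probe set's log2 values, the highest had to exceed the 40th percentile of that quantity, equal to a signal of 65.4, and 27022 probe sets did. The fit was limma 3.58.1 in R 4.3.3 (lmFit, eBayes) on 3 against 3 arrays, two-sided, with Benjamini-Hochberg adjustment over all tested probe sets and a threshold of 0.05; it was tested on simulated data. Loss, signal classes and list counts were computed in Python 3.11.15. A loss corresponding to a list's signals is the sum of the all-gene shares of its members' signal classes.

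Genes were named by a rule: 10 called genes in each direction by size of change, or all that passed; the 10 brightest lost on all 3 arrays and 6 each lost on 2 or 1; 6 of the reverse pattern; and per list the 3 brightest, the 3 brightest lost and 2 called. Other names were chosen after their values were seen. The comparison, the 10 marker lists of the pool, the 6 others and the 23 classes were chosen with earlier results of these data known. Where the replicate numbers of the titles were checked as pairs, the deviations of same-numbered arrays correlated at −0.0006, −0.013 and 0.012, so they were not used as a block. Alternatives were other pseudocounts, filters, scalings, backgrounds, fits and leaving out each array.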

Additional observations from a re-analysis of the deposited data

How the results depend on the processing

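The count of 215 probe sets passing the limma test was 76 with no filter on low signals, 57 with a filter on the mean of the 6 arrays, 75 after quantile normalization, 79 with arrays centred on their medians, 69 with array weights per input group, 1571 with all 12 arrays in 1 fit and 634 scaled on the hybridisation controls (added after seeing the data). With the replicate numbers as a block, it was 0, with 3483 probe sets at an unadjusted p under 0.05. The labels do not say whether the numbers pair the arrays. Deviations of same-numbered arrays showed almost no correlation, but so few arrays per input cannot exclude a pairing. Leaving out 1 array gave 0 to 595. A pseudocount of 1 or 32, or an intensity trend, gave 151 to 212. Calls lower at 0.3 ng made up 95.8% of the 215, and 74.2% with the trend. Of the 17 called genes named by the rule, 0 changed direction under any alternative, 180 of 288 recomputed calls held, and between 10 and 17 held under each alternative but the block and leaving out a 10 ng array, where 0 held (adjusted p from 0.10 to 0.21).

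Loss on all 3 arrays (735) was 459 after quantile normalization, 401 with arrays centred on their medians and 1175 scaled on the hybridisation controls, and 1020 to 1433 with 1 array left out. Loss on only some arrays (4966) ranged from 2952 to 5791 with 1 array left out. The reverse count (120) was 55 with a background of 100, 278 after quantile normalization, 369 with arrays centred on their medians, 28 scaled on the hybridisation controls, and 197 to 370 with 1 array left out. The share of markers lost (25.7%) was 19.3% with arrays centred on their medians. The difference in share under background ran from 4.51 to 5.92 percentage points and the ratio of replicate spreads (2.84) from 2.07 to 4.02. The differences in 3′ to 5′ log2 ratio kept their sign with 1 array left out but not their size: 0.02 to 0.08 for Actb, 0.03 to 0.06 for Gapdh, −1.41 to −0.21 for Pcx and −5.10 to −2.98 for Tfrc, each within 1 SD of the replicates. Of the recomputed shares of lists, classes and signal bins, 220 held within their intervals and 20 moved. Of the 22 named lost genes, 17 to 22 kept their number of arrays under background. The causes of these shifts were not tested. Signal near background limits every statement on dim genes.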
